A study of Mus musculus with 12 samples.

Results

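Helios and Eos are zinc finger transcription factors of the Ikaros family, encoded by Ikzf2 and Ikzf4, and their chromatin was described here from 48 open regions out of 40457 found in the whole study. A region is a stretch covered by overlapping or touching peaks of any library, and every region that lay in either of 2 windows given by position was taken. The Ikzf2 window ran over 400 kb of chromosome 1, from 69450000 to 69850000, and held 43 regions. The Ikzf4 window ran over 90 kb of chromosome 10, from 128040000 to 128130000, and held 5. Positions are on the build NCBIM37 and count from 1. No annotation of that build was used, so the place of each region relative to exons, introns and start sites is not given. In the RefSeq gene table of GRCm38.p6 the nearest protein-coding genes on either side were Erbb4 and Spag16 for Ikzf2 and Rps26 and Suox for Ikzf4. Whether a region of the Ikzf4 window belongs to a neighbour was therefore not determined. Below, a Helios or Eos region means a region that lay in the Ikzf2 or Ikzf4 window, whichever gene it may serve.

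Ikaros family proteins bind DNA through an amino-terminal group of zinc fingers and pair with each other through a carboxy-terminal group. They act as repressors or activators through chromatin remodelling complexes. Helios is known for high expression in most regulatory T cells and for holding their identity stable, and Eos is known as a partner of Foxp3 in gene silencing in these cells. Open chromatin around a gene marks promoters and enhancers that can be in use, but an open region is not a measure of transcription.

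The libraries came from spleens of Foxp3-IRES-EGFP reporter mice, in which every cell that makes Foxp3, the transcription factor that defines regulatory T cells, is green. CD4+ T cells were sorted into GFP+ regulatory cells (Treg) and GFP- conventional cells (Tconv), 100000 per library, and open DNA was tagged with the Tn5 transposase (ATAC-seq). The 4 groups were Treg of knockout mice, Treg of wild-type mice, Tconv of knockout mice and Tconv of wild-type mice, with 3 libraries each. Knockout (KO) mice lacked an enhancer named Lrrc32 +70k in the labels; Lrrc32 is the gene of the TGF-beta docking receptor GARP. The wild-type (WT) mice carried the reporter alone. Ages and sexes are not in the labels used here, nor whether each library was 1 animal. The p-values therefore reflect only how these libraries vary, and that variation may be technical.

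KO Treg replicate 2 stood apart, with 5262 peaks in its list against 21269 to 27605 in the other 11 libraries. It had 1 peak in the Ikzf2 window and 0 in the Ikzf4 window, and the main results are given with and without it. Of 15639 regions open in all 6 WT libraries it had a peak at 28.6%, where KO Treg replicate 1 had the lowest share of the other KO libraries, 97.5%. Sequencing depth is not known from peak lists, and a weak signal is not listed: every list ended at a −log10 p of about 5. A within-list percentile below places a peak among all peaks of its library by the authors' −log10 p, with 100 the strongest. Where a library had more than 1 peak in a region, the highest percentile was used. The green reporter is the gate itself, and the sorted cells could not be checked against other marker genes without an annotation.

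Leaving aside KO Treg replicate 2, the Helios window held 17 to 24 open regions in Treg libraries and 8 to 11 in Tconv libraries. These counts are out of 30: of its 43 regions, 30 were recurrent, meaning present in 2 or more libraries, and 13 were seen in a single one. Of those 13, 12 were seen in a Treg library and 1 in a Tconv library. The same split over all single-library regions of the study was not counted, so no lean is read from it. Among the 30, 16 had peaks in Treg libraries only, 14 in both cell types and 0 in Tconv libraries only. Across all 32787 recurrent regions of the study, 11.5% had peaks in Treg libraries only and 9.22% in Tconv libraries only. Of the 16, 3 had a peak in 5 Treg libraries, 3 in 4, 1 in 3 and 9 in 2. Of the 30, 21 had a peak in more Treg than Tconv libraries, 7 in more Tconv libraries and 2 in equal numbers. Across all recurrent regions 21.7% leaned to Treg and 56% to Tconv in this way. These counts rest on KO Treg replicate 2, since a region that only this library lacks counts towards Tconv, as 3 of the 7 Helios ones did. By the share of libraries without it, 22 of the 30 leaned to Treg, 4 to Tconv and 4 were equal, against 30.2% to Treg and 24.8% to Tconv of all recurrent regions. Over the 3880 autosomal stretches of 400 kb with at least 1 recurrent region, the median was 7 and the highest number 48. As many recurrent regions as in this window were held by 16 of them (0.412%).

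KO Treg libraries had a peak at 20, 1 and 24 of the 30 Helios regions and WT Treg libraries at 23, 23 and 17. KO Tconv libraries had one at 11, 8 and 10 and WT Tconv libraries at 10, 10 and 9. Every Treg library but KO Treg replicate 2 lay above every Tconv library, by at least 6 regions. Treg averaged 18.0 ± 8.72 regions and Tconv 9.67 ± 1.03 (SD, n = 6 each), a difference of 8.33. Exchanging the cell types within each genotype in all 400 ways gave a two-sided exact permutation p = 0.065. Without KO Treg replicate 2 the Treg mean was 21.4 ± 2.88 (SD, n = 5) and the difference 11.7, with an exact permutation p = 0.005, the smallest that design can give. Leaving out any other library kept the difference between 6.13 and 8.60, with exact permutation p between 0.07 and 0.135.

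**Figure D1:**
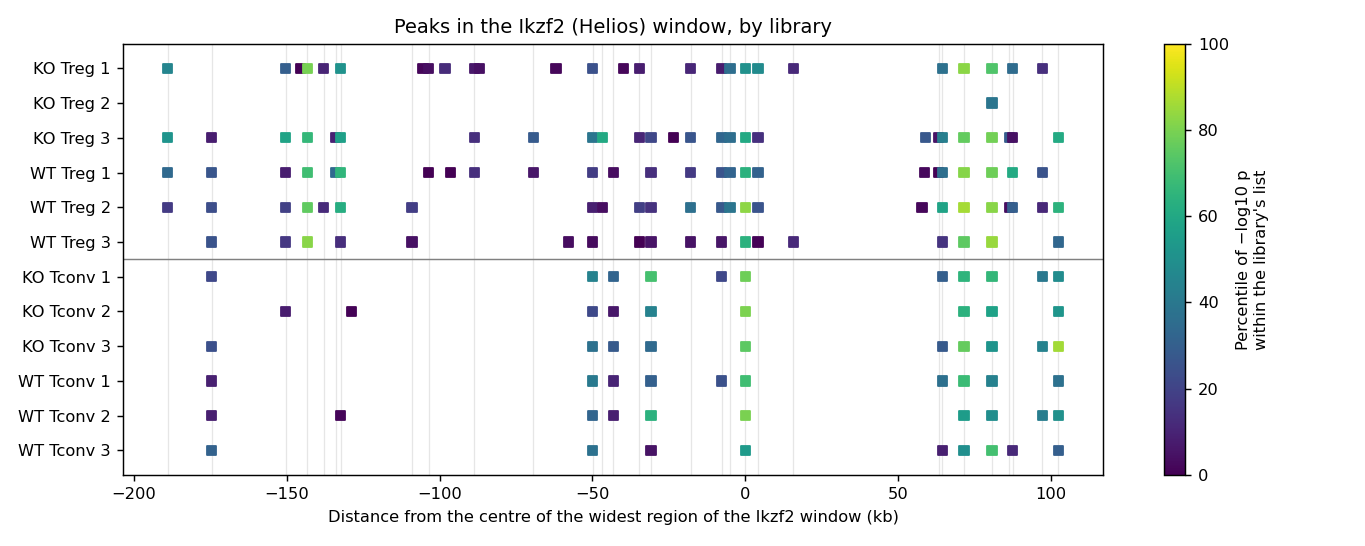
Peaks of each library (rows, KO above WT and Treg above Tconv) in the Ikzf2 window, placed by the centre of their region as a distance in kb from the centre of the widest region; the colour is the percentile of −log10 p within the library's list, and pale vertical lines mark the 30 recurrent regions. Between the region from 69559760 and the region from 69684460, Tconv rows hold 3 peaks, while every Treg row but KO Treg 2 holds several; both cell types share the column at 0 and others to the right of 50 kb.

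By covered length, too, every Treg library but KO Treg replicate 2 lay above every Tconv library. This length was summed over all 43 regions of the window, not only the recurrent ones. Peaks covered 13594, 326 and 16873 bp of the Ikzf2 window in KO Treg and 14499, 12967 and 9981 bp in WT Treg, against 6189, 6062 and 7252 bp in KO Tconv and 4988, 6163 and 5060 bp in WT Tconv. As a share of the window this was 3.40% ± 0.625 in Treg without KO Treg replicate 2 (SD, n = 5) and 1.49% ± 0.210 in Tconv (SD, n = 6). The Treg minus Tconv difference in covered length was 7630 bp without that library (exact permutation p = 0.005) and 5421 bp with it (exact permutation p = 0.07). When every list was reduced to its 21269 strongest peaks, and without KO Treg replicate 2, the difference in regions was 4.10 (exact permutation p = 0.02). With all 12 lists at 5262 peaks it was 1.17 (exact permutation p = 0.085). With peaks restricted to a −log10 q of at least 5 in all 12 libraries it was 1.83 regions (exact permutation p = 0.525). Peaks at the 16 regions seen in Treg only had a median percentile of 17.2, and peaks at the 14 regions of both cell types one of 36.9.

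**Figure D2:**
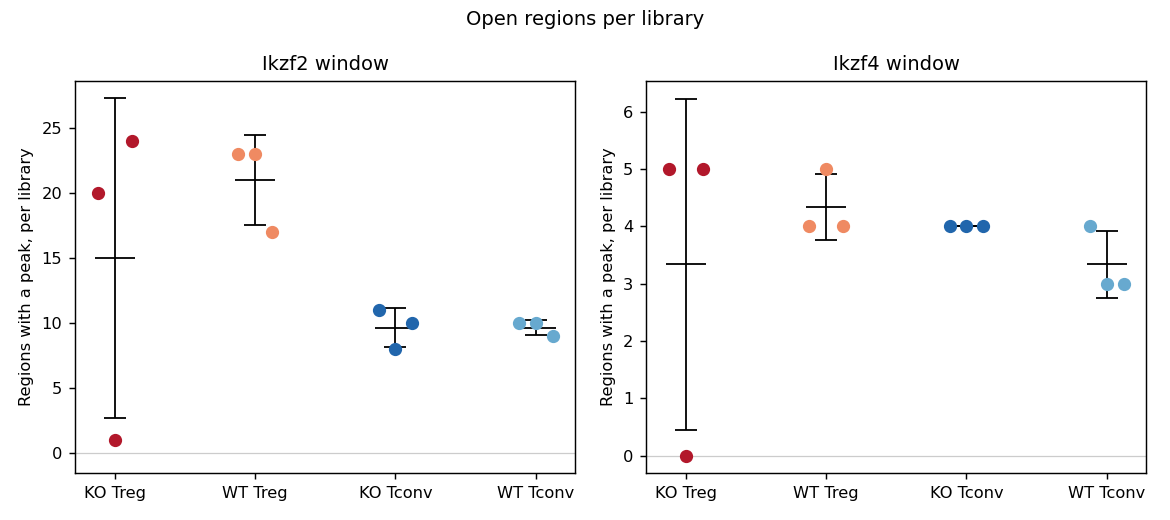
Number of regions with a peak in each library (points) for the Ikzf2 window (left, out of 30) and the Ikzf4 window (right, out of 5), by group; bars are the mean and SD of 3 libraries. In the Ikzf2 window Treg libraries other than KO Treg replicate 2 hold 17 to 24 regions and Tconv libraries 8 to 11; in the Ikzf4 window the same libraries hold 4 or 5 and 3 or 4.

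At 3 regions of the Helios window the cell types were fully split, with a peak in all Treg libraries but KO Treg replicate 2 and in 0 of 6 Tconv libraries. Such a split was found at 3.16% of all recurrent regions. These met the rule for Treg enrichment, an excess of 5 or more Treg libraries with a peak, which 3.2% of all 32787 met. The Tconv-enriched counterpart was met by 0 of the 30 and by 3.55% of all regions. Of the 3880 autosomal stretches of 400 kb with a recurrent region, 55 held as many Treg-enriched regions as this window. The most in any stretch was 7. Fisher's exact test gave p = 0.0152 at each of the 3 (two-sided), and 0.224 after Benjamini-Hochberg (BH) adjustment over all 32787 regions. That test called 0 regions anywhere in the study after this adjustment, with 2213 at an unadjusted p under 0.05. Adjusted over the 5679 regions in 5 to 7 libraries, a restriction chosen after the data were seen, Fisher's exact test called all 2213, these 3 among them, with an adjusted p = 0.0389.

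The strongest of the Treg-enriched regions ran from 69590645 to 69592298, over 1654 bp. Its percentiles were 79.7 and 66.6 in KO Treg replicates 1 and 3 and 69.4, 75.7 and 82.1 in WT Treg, and no Tconv library had a peak there. Thus all 5 of these Treg libraries placed it in the upper part of their lists. With peaks of −log10 q of at least 5 it kept a peak in 5 Treg and 0 Tconv libraries. The second region, from 69716218 to 69717764, had percentiles of 10.7 and 26.3 in KO Treg replicates 1 and 3 and 16.9, 36.6 and 4.97 in WT Treg. The third, from 69738650 to 69739245, had 47.7 and 13.9 in the same KO libraries and 31.1, 26 and 0.411 in WT Treg. Both ranked below the first in every one of these libraries. Under the stricter q they were present in 2 and in 3 Treg libraries and in 0 Tconv libraries.

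Another 5 regions had a peak in 4 more Treg than Tconv libraries. With the 3 above, that made 8 of 30, while 6.26% of all regions had a difference of at least 4. The region from 69602119 to 69602795 had percentiles of 50.9 and 56.4 in KO Treg replicates 1 and 3 and 65.3, 62.4 and 13.0 in WT Treg, and a single Tconv peak at 1.33 in WT Tconv replicate 2. The region from 69584201 to 69584799 had 29.9 and 58.0 in those KO libraries, 8, 19.3 and 16.4 in WT Treg and 7.44 in KO Tconv replicate 2. In both, the lone Tconv peak ranked below every Treg peak. The regions from 69545461 to 69546284, from 69699963 to 69700405 and from 69729557 to 69729966 were each open in 4 Treg and 0 Tconv libraries. Their mean Treg percentiles were 37.1 ± 15.0, 9.32 ± 7.48 and 35.5 ± 2.90 (SD, n = 4 each).

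The strongest Treg-enriched region lay within a short stretch of the window, from 69584201 to 69602795, that held 5 regions of the recurrent kind. Tconv lists had 2 peaks in it in all, those of KO Tconv replicate 2 and WT Tconv replicate 2 just given. The longest stretch without a recurrent region was 47.2 kb, from 69750667 to 69797899. The median distance between neighbouring regions was 5.84 kb.

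A single Helios region had a Tconv excess of 4 libraries or more. From 69691359 to 69691949 a peak was found in 1 Treg library, WT Treg replicate 1 at a percentile of 3.30, and in 5 Tconv libraries. Those were 31.7, 6.53 and 28.0 in KO Tconv and 9.79 and 8.58 in WT Tconv replicates 1 and 2. A difference of 4 or more towards Tconv was met by 6.38% of all regions. With peaks of −log10 q of at least 5, the region from 69691359 had a peak in 0 Treg and 2 Tconv libraries. With lists cut to their 21269 strongest peaks the numbers were the same. The region from 69703231 to 69704615 was open in both cell types, with mean percentiles of 13.6 ± 6.63 in Treg (SD, n = 4) and 41.4 ± 24.0 in Tconv (SD, n = 6). Its Tconv range of 4.89 to 70.6 overlapped the Treg range of 5.10 to 21.3. Under the stricter q it kept a peak in 1 Treg and 5 Tconv libraries. In the cut lists it did so in 1 Treg and 6 Tconv libraries.

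The outermost region on the right, from 69836839 to 69837423, was open in 3 Treg libraries and in 6 Tconv libraries. Its percentiles averaged 52.6 ± 17.0 in Treg (SD, n = 3) and 50.6 ± 19.5 in Tconv (SD, n = 6), and its highest value, 86.2 in KO Tconv replicate 3, was among the highest of the window. Next to it, the region from 69831678 to 69832219 was open in 3 libraries of each cell type, at 16.8 ± 7.85 in Treg and 42.0 ± 1.82 in Tconv (SD, n = 3 each). The regions from 69559760 and from 69798644 were likewise common to both, in 4 Treg and 5 Tconv and in 5 Treg and 4 Tconv libraries. The regions from 69726172 and from 69822055 leaned to Treg, with 5 Treg and 2 Tconv and with 4 Treg and 1 Tconv libraries. None of these 6 regions met a rule of enrichment.

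Other Helios regions were open in nearly every library. In this window 4 regions had a peak in 11 or all 12 libraries, as 45.1% of all recurrent regions did. Without KO Treg replicate 2 the same 4 were open in all 11 libraries, as 44.9% of all recurrent regions were. KO Treg replicate 2 had its only Helios peak at the region from 69814956 to 69816067, at a percentile of 38.9, so this region was open in all 12 libraries. The widest region of the window, 2802 bp from 69733375 to 69736176, was called as 2 separate peaks in 9 libraries, as 1 peak in 2 libraries and not at all in KO Treg replicate 2. Another, from 69684460 to 69685338, ranked at 18.7 ± 14.1 in Treg (SD, n = 5) and 35.5 ± 7.71 in Tconv (SD, n = 6), with overlapping ranges.

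For a fair comparison of ranks, each of the 11 libraries other than KO Treg replicate 2 was reduced to its 21269 strongest peaks, and regions with such a peak in all 11 were compared. Such a rank is relative to the other peaks of a list and is not a signal level. In the study 13087 regions qualified, 3 of them in the Helios window and 3 in the Eos window. At the Helios region from 69805885 to 69806835, the percentiles were 79.9 and 71.3 in KO Treg replicates 1 and 3 and 78.2, 82.4 and 73.3 in WT Treg, against 58.9, 57.9 and 72.1 in KO Tconv and 64.1, 47.8 and 49.5 in WT Tconv. KO Tconv replicate 3 alone reached into the Treg range. The difference in means was 18.6 points (exact permutation over 462 labelings, two-sided p = 0.00649, BH-adjusted over 13087 regions 0.0861).

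At the region open in all 12 libraries, from 69814956 to 69816067, percentiles in these lists were 67.8 and 74.5 in KO Treg replicates 1 and 3 and 73.6, 77.1 and 83.4 in WT Treg, against 60.6, 51.0 and 42.7 in KO Tconv and 36.1, 41.0 and 70.0 in WT Tconv. WT Tconv replicate 3 alone reached into the Treg range. The difference was 25.1 points (exact permutation p = 0.00866, BH-adjusted 0.0971). Neither difference passed the adjusted threshold, and in this exact permutation test 0 of the 13087 regions did (0%). The smallest p this permutation test can give is 0.00216, and the smallest BH-adjusted p of any region was 0.0599. The lack of a call at these regions is therefore no sign of equal ranks. Full separation, with every Treg library above every Tconv library, was seen at 0 of the 6 regions of both windows, at 3.35% of the 13087, and the reverse at 0 of the 6 and at 2.94%. At an unadjusted p under 0.05, 12% of them ranked higher in Treg and 10.4% higher in Tconv. At the widest region Treg averaged 58.2 ± 13.1 (SD, n = 5) and Tconv 69.7 ± 8.89 (SD, n = 6), a difference of −11.5 points (exact permutation p = 0.113, BH-adjusted 0.333). There the value was the higher of 2 peaks in 9 libraries and that of 1 peak in 2 libraries, so the measures were not quite alike.

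The direction depended on the measure ranked. By fold enrichment over background in place of −log10 p, the region from 69805885 had a mean percentile of 65.2 ± 8.78 in Treg and 76.9 ± 10.6 in Tconv, a difference of −11.7 points (exact permutation p = 0.0909). The region from 69814956 then had 57.5 ± 8.57 in Treg and 62.9 ± 13.8 in Tconv, a difference of −5.41 points (exact permutation p = 0.468; SD, n = 5 and 6 libraries). At the widest region the difference stayed negative, −6.52 points (exact permutation p = 0.0563). In the authors' lists the fold enrichment of the region from 69805885 was 7.14 and 6.10 in KO Treg replicates 1 and 3 and 6.96, 7.20 and 6.86 in WT Treg. It was 7.37, 7.03 and 7.89 in KO Tconv and 7.97, 6.63 and 6.59 in WT Tconv.

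**Figure D3:**
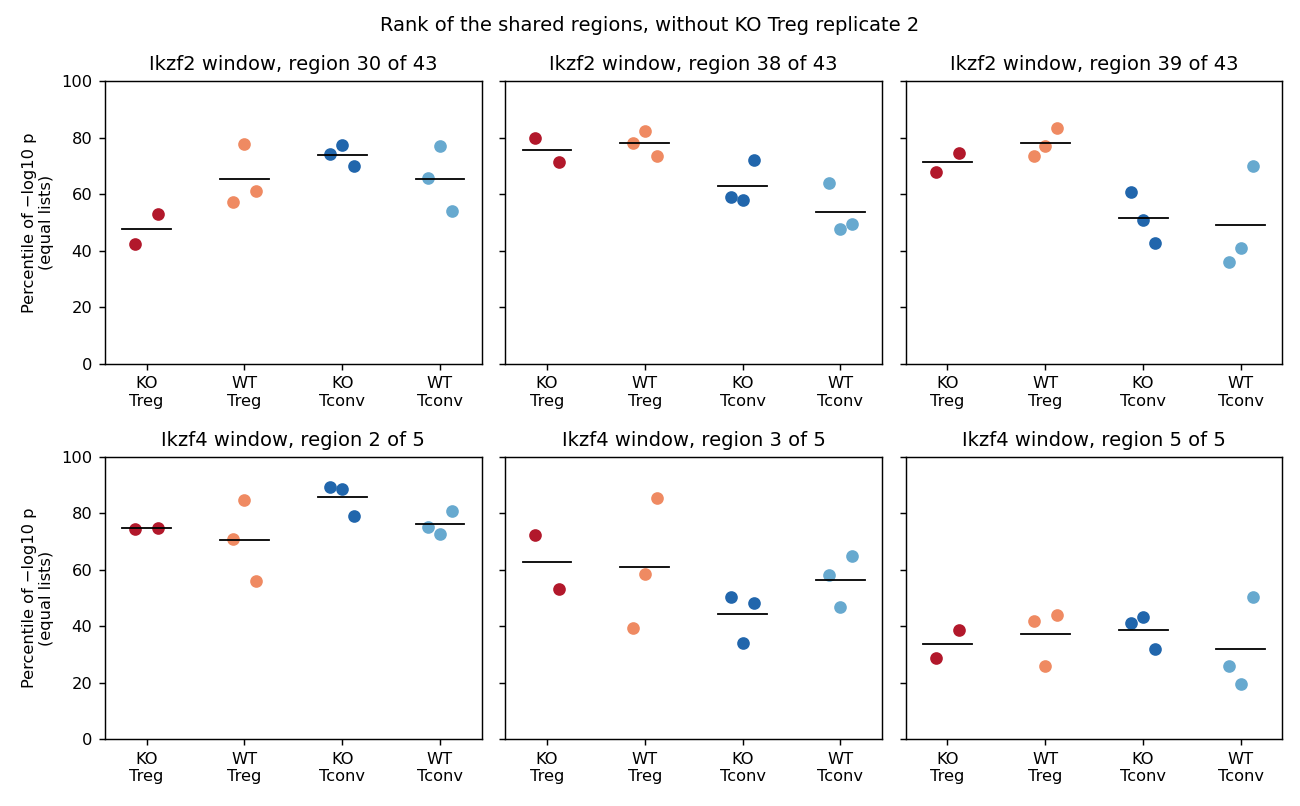
Percentile of −log10 p (0 to 100) among the 21269 strongest peaks of each library at the 6 regions of both windows with such a peak in all 11 libraries, numbered along their window; points are libraries and black lines group means, with KO Treg replicate 2 left out. Regions 38 and 39 of the Ikzf2 window (from 69805885 and from 69814956) place Treg above all but 1 Tconv library; region 30 (the widest) and the 3 Ikzf4 regions overlap between cell types.

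The Eos window was smaller, and most of its regions were open in both cell types. All 5 of its regions were recurrent, 4 of them in both cell types and 1 in Treg libraries only. A peak was found at 5, 0 and 5 of them in KO Treg and at 4, 5 and 4 in WT Treg, against 4, 4 and 4 in KO Tconv and 4, 3 and 3 in WT Tconv. Treg averaged 3.83 ± 1.94 and Tconv 3.67 ± 0.516 (SD, n = 6 each), a difference of 0.167 (exact permutation p = 1). Without KO Treg replicate 2 the Treg mean was 4.60 ± 0.548 (SD, n = 5) and the difference 0.933 regions (exact permutation p = 0.015). That difference was 0.3 when lists were also reduced to equal length (exact permutation p = 0.56). No Eos region met either rule of cell type enrichment.

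The strongest region of the Eos window ran from 128063318 to 128064212 and had a peak in every library but KO Treg replicate 2. In the equal lists its percentiles were 74.5 and 74.9 in KO Treg replicates 1 and 3 and 70.8, 84.5 and 56.1 in WT Treg, against 89.3, 88.7 and 79.2 in KO Tconv and 75.2, 72.8 and 80.8 in WT Tconv. The groups overlapped, with a difference of −8.79 points (exact permutation p = 0.110, BH-adjusted 0.330). The region from 128073693 to 128074841 averaged 61.8 ± 17.7 in Treg (SD, n = 5) and 50.4 ± 10.4 in Tconv (SD, n = 6), with overlapping values (exact permutation p = 0.219). The region from 128110417 to 128111922 averaged 35.9 ± 8.05 in Treg and 35.4 ± 11.7 in Tconv (exact permutation p = 0.937; SD, n = 5 and 6). It was the widest of the window at 1506 bp and stood 26.7 kb from its neighbour.

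The region from 128082411 to 128083686 was open in Treg libraries only, in KO Treg replicates 1 and 3 at percentiles of 8.44 and 3.13 and in WT Treg replicate 2 at 13.3. These were weak peaks, and a difference of 3 libraries did not meet the enrichment rule. The last region, from 128049647 to 128050406, was open in 5 Treg and 4 Tconv libraries, with mean percentiles of 25.4 ± 16.6 in Treg (SD, n = 5) and 21.0 ± 10.6 in Tconv (SD, n = 4).

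**Figure D4:**
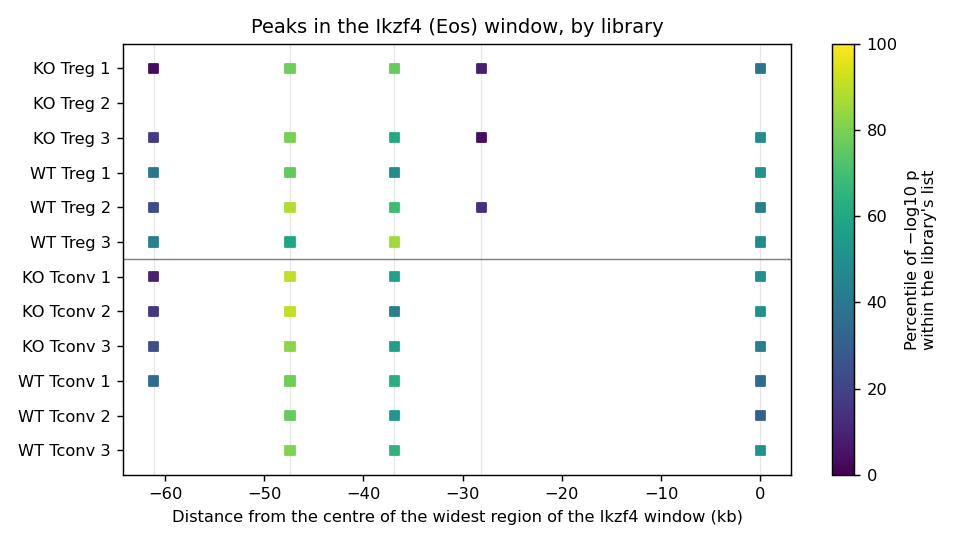
Peaks of each library (rows, KO above WT and Treg above Tconv) at the 5 regions of the Ikzf4 window, placed in kb from the centre of the widest region; the colour is the percentile of −log10 p within the library's list. Of the 5 columns, 3 are filled in every row but KO Treg 2, and the column about 28 kb left of the widest region is filled in 3 Treg rows only.

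Loss of the Lrrc32 enhancer went with no region of either window being lost or gained. Of the 35 recurrent regions, 0 were open in every WT library and without a peak in every KO library of the same cell type, and 0 showed the reverse. Across all regions 0.973% were lost and 0.0305% gained in KO Treg, and in KO Tconv the shares were 0.189% and 0.793%. With such low rates, a count of 0 among 35 is no result about these genes. The design holds 3 libraries against 3, where no exact permutation p can go below 0.1, and a call rule of this kind misses a change in strength. Without KO Treg replicate 2, 0 regions were lost and 0 gained by the same rule, where 0.976% and 1.08% of all recurrent regions were.

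The number of open Helios regions averaged 15.0 ± 12.3 in KO Treg and 21.0 ± 3.46 in WT Treg (SD, n = 3 each; exact permutation p = 0.7). Without KO Treg replicate 2 the KO mean was 22 ± 2.83 (SD, n = 2), 1 region above WT (exact permutation p = 0.8). In Tconv it averaged 9.67 ± 1.53 in KO and 9.67 ± 0.577 in WT (SD, n = 3 each; exact permutation p = 1). Eos regions averaged 3.33 ± 2.89 in KO Treg and 4.33 ± 0.577 in WT Treg (exact permutation p = 1; SD, n = 3 each), and 4 ± 0 in KO Tconv against 3.33 ± 0.577 in WT Tconv (exact permutation p = 0.4). The KO minus WT difference in Treg less that in Tconv was −6.00 regions in the Helios window (exact permutation of genotype within cell type, 400 labelings, p = 0.65) and −1.67 in the Eos window (exact permutation p = 0.64). Both values rest on KO Treg replicate 2: without it they were 1 region in the Helios window (exact permutation over 200 labelings, p = 0.79) and 0 in the Eos window (exact permutation p = 1).

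Regions chosen by the presence of peaks in WT libraries alone could be followed into KO libraries. The KO libraries had no part in that choice, but their peaks were merged with the rest and helped set the borders of the regions. In both windows together 4 regions, all at Helios, had a peak in all 3 WT Treg and no WT Tconv library, and 0 had the reverse pattern, where 5.73% and 2.94% of all recurrent regions did. KO Treg replicates 1 and 3 had a peak at 4 of the 4 and KO Treg replicate 2 at 0. KO Tconv replicates 1, 2 and 3 had one at 0, 1 and 0. Over all 1879 regions of this kind, the same libraries had a peak at 86.2%, 87.8% and 3.62% (KO Treg replicates 1, 3 and 2) and at 15.9%, 17.9% and 14.9% (KO Tconv replicates 1, 2 and 3). A difference of the 4 from these shares was not tested. Taken by KO libraries alone, 9 Helios regions and 1 Eos region had a peak in both KO Treg replicates 1 and 3 and in no KO Tconv library, a pattern of 6.9% of all recurrent regions.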

How the data were processed

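Each of the 12 libraries came as its own list of broad peaks, as deposited by the authors. MACS2, Bowtie2, Trim Galore 0.4.4, DESeq2 and DiffBind, and the build NCBIM37, are credited to the submitters' processing notes, which state no role or order for them. A control input, read filters and a shift of Tn5 cut sites were each not given in the sources used here. The authors gave every peak a score, which was not used. They also gave a −log10 p-value, a −log10 q-value and an enrichment over background, a fold ratio, all deposited per library and used only within a list.

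Overlapping or touching peaks of all libraries were merged, and recurrent regions, those of 2 or more libraries, entered the calls. Any overlap counted as presence. The tests and calls across regions were run over the whole table, with Benjamini-Hochberg (BH) adjustment at 0.05 over all regions tested. Differences between groups of libraries were tested by exact permutation, two-sided. The windows, members and lists were chosen with earlier results of these data known. Regions were named when called by a rule, when the cell types differed by 4 libraries, or when shared by at least 11 libraries, and some others after their values were seen. The planned marker genes and further Ikaros family genes were not analysed here, since no annotation of the build was used. No 2 lists shared more than 0.151% of identical intervals. The work used numpy 2.4.6, pandas 2.3.3, scipy 1.17.1 and matplotlib 3.10.9 under Python 3.11.15, and the calls and tests were checked on simulated data. Alternatives covered the peak threshold, list length, overlap, merging, measure, library minimum, replicate block and each library left out.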

Additional observations from a re-analysis of the deposited data

Results flagged for a closer look

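Each set of 6 libraries of a cell type was checked for a library far from the others, over 12 comparisons, of which chance would flag about 1 in 20. KO Treg replicate 2 lay far below the other Treg libraries in the Ikzf2 window, with 1 region and 1.90 peaks per 10000 peaks of its list. In the Ikzf4 window it had 0 regions and 0 peaks per 10000. Its list was also the shortest, with 5262 peaks, and the part of that in these values was not tested beyond the equal lists and the omission given above. WT Tconv replicate 3 was far below the other Tconv libraries in covered length of the Ikzf4 window, with 1533 bp, and had 21269 peaks, the fewest of the other 11 libraries.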

How the results depend on the processing

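Depth is unknown, so an absent peak may be a weak one, and most Treg regions of the Ikzf2 window had low ranks. Over 16 results and 312 alternative values, 256 kept their direction and side of the threshold, or stayed within 1.5 times for counts. The KO minus WT tests could not change side, since with so few libraries no exact permutation p goes below 0.1. Leaving out a library of the other cell type changes them only through merging and the set of recurrent regions. The 256 is therefore not a measure of robustness. Another 40 moved, 9 reversed in sign and 7 passed the threshold where the reported value did not. Differences below are numbers of regions per library unless a unit is given, and the causes were not tested. With peaks of −log10 q of at least 5, KO minus WT in Tconv was 1.67 at Ikzf2 and 0 at Ikzf4, Treg minus Tconv at Ikzf4 was −0.167, and 1 region was Treg-enriched and 1 lost in KO Treg. With 5262 top peaks per list, Treg minus Tconv was 1.17 at Ikzf2 (exact permutation p = 0.085) and −0.5 at Ikzf4, and 0 regions were Treg-enriched. With 21269 top peaks and without KO Treg replicate 2, Treg minus Tconv at Ikzf2 was 4.10, KO minus WT there was 0.667 in Treg and 1 in Tconv, and 1 region was Tconv-enriched and 1 lost in KO Treg. Requiring peaks over 50% of a region gave 3.33 for KO minus WT in Tconv at Ikzf2 and −0.333 for Treg minus Tconv at Ikzf4. For KO minus WT in Tconv at Ikzf2, covered length gave 1097 bp, peaks per 10000 gave −0.309 and regions of any library 0.333. Treg minus Tconv at Ikzf2 in peaks per 10000 was 4.0 (exact permutation p = 0.02). Chosen after seeing the data and without KO Treg replicate 2, it was 5.31 (exact permutation p = 0.005), 7630 bp of covered length, and 0.307 at Ikzf4 (exact permutation p = 0.025). A difference of 4 libraries gave 8 Treg-enriched and 1 Tconv-enriched region, and loss defined as 2 of 3 WT against no KO Treg library gave 1.

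Leaving out 1 library at a time, Treg minus Tconv ranged over 6.13 to 11.7 at Ikzf2 and −0.0667 to 0.933 at Ikzf4. Both were highest without KO Treg replicate 2. At Ikzf4 it was negative without KO Treg replicate 1 or 3 or WT Treg replicate 2. KO minus WT in Treg ranged over −8.83 to 1 at Ikzf2 and −1.83 to 0.667 at Ikzf4, positive without KO Treg replicate 2, and in Tconv over −0.667 to 0.833 and 0.5 to 1. Treg-enriched Ikzf2 regions ranged over 3 to 9 and Tconv-enriched ones over 0 to 2, with a difference of 4 of the 11 libraries left required. Regions lost in KO Treg ranged over 0 to 2 and gained in KO Tconv over 0 to 1. These counts, too, lack that share of all regions.

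With replicate number as a block, Treg minus Tconv was 8.33 at Ikzf2 (exact permutation p = 0.0625) and 0.167 at Ikzf4 (exact permutation p = 1). KO minus WT at Ikzf2 was −6.00 in Treg and 0 in Tconv, and 4 regions were Treg-enriched, against 3 without the block. Deviations of same-numbered libraries correlated at −0.0283 to 0.0608. Between WT Treg and WT Tconv the correlations were 0.0152 to 0.0608 for the same number and −0.0425 to 0.0165 for different numbers. Between KO Treg and KO Tconv they were −0.0283 to 0.00841 and −0.0299 to 0.0300. Values this small cannot decide whether a number marks a shared animal. The block moved no test across its threshold.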
